A study of Mus musculus with 6 samples.

Results

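The NR4A nuclear receptors (Nr4a1, Nr4a2 and Nr4a3), the EGR zinc finger factors (Egr1, Egr2 and Egr3) and the calcium-regulated factor Nfatc1 were followed as 7 genes chosen by name. The array annotation gave them 15 of the 45281 probes of the intensity table, and 6 of the 15 belonged to Nfatc1. After the filter on dim probes, 13 of these 15 probes remained, and 6 of the 7 genes were among the 13524 genes tested. Nr4a1 had 1 probe, which was not above background on any array, so it was not tested.

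The cells were CD8+ T lymphocytes isolated from spleens of C57BL/6 mice aged 6 weeks. They were pre-treated with DMSO as the vehicle, with 0.5 µM epoxomicin, which inhibits the proteasome, or with 1.0 µM E9, a compound known here by its code name and labelled a proteasome activator. All 3 groups were then held for 3 days in medium with IL-2 on plates coated with 5 µg/ml of antibodies to CD3 and CD28, so the controls were stimulated too and no unstimulated group was analysed. Each group had 2 Illumina bead arrays, described as biological duplicates, without saying whether any of them had a mouse or a day in common.

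NR4A and EGR genes are induced within minutes to hours after the T cell receptor is engaged, and their transcripts are used as a readout of how strongly a T cell is being signalled. Calcium and calcineurin bring NFAT proteins into the nucleus, where they act on NR4A, EGR and cytokine genes, while RAS and ERK reach the EGR genes through the serum response factor SRF and its ELK partners. EGR2 and EGR3 are known to restrain T cell activation and to take part in anergy, and NR4A factors are known from tolerant and chronically stimulated CD8+ T cells. Nfatc1 encodes an NFAT protein whose own gene is induced by NFAT. Binding sites for CREB-type factors are well known in NR4A promoters, and sites for SRF, called CArG boxes, in EGR promoters.

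The windows of 3 promoters are shown because their genes, Nr4a2, Nr4a3 and Egr2, were higher with epoxomicin than with E9 in the results that follow. The RefSeq promoter table (GRCm38.p6, 250 bases before and 50 after the start of a transcript) matched 4 of the 7 genes: Nr4a1, Nr4a2, Nr4a3 and Egr2. The sequences run 5′ to 3′ on the strand of the gene, and capitals mark the half-site of the cAMP response element, TGACG on either strand, and the CArG box. Egr2 has 5 windows in the table, of which 3 overlapping ones hold both motifs, and the first of these is shown.
Nr4a2, chr2:57123954-57124253, minus strand: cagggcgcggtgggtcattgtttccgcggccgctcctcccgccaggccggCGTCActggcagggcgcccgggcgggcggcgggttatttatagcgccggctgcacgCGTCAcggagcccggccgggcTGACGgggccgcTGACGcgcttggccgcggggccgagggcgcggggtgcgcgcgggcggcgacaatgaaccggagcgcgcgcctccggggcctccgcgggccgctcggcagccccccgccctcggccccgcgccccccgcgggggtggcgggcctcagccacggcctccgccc
Nr4a3, chr4:48045055-48045354, plus strand: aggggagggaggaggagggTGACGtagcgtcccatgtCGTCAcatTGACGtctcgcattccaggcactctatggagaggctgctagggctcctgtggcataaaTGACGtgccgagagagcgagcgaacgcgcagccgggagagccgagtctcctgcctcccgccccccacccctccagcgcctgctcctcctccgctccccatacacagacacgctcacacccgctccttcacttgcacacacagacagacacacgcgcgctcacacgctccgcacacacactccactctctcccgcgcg
Egr2, chr10:67537619-67537918, plus strand: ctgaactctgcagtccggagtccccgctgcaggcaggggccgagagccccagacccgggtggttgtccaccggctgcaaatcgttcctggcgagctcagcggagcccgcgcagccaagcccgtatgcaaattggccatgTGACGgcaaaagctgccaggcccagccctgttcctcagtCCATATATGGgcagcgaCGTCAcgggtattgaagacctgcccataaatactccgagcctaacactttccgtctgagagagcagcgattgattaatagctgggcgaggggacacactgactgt
The Nr4a2 and Nr4a3 windows each held 4 copies of TGACG, as did that of Nr4a1. Of all 32851 windows in the table, 20.8% held at least 1 copy and 0.231% held 4 or more. The Egr2 window held 2 copies and 1 CArG box, which began 72 bases before the start (first base at -72, with the start at 0), did not overlap the copies of TGACG and occurs in 1.63% of windows. The motif GCGNGGGCG, bound by EGR proteins, was found on either strand in 1 place each in the windows of Nr4a1 and Nr4a2 (5.55% of all windows), while AAAGGTCA, bound by NR4A proteins as monomers, was in none of the 4 genes' windows (1.51% of all). Short matches of this kind are descriptions of letters and not of binding.

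Intensities are the authors' quantile-normalized values in arbitrary units, on which background is still present, and a probe was taken as above background when it exceeded 34.5. Fold changes are on the log2 scale after background correction with an offset of 50, given with the standard error (SE) of limma's model of all 6 arrays, and a gene rose or fell where its p-value, adjusted by Benjamini and Hochberg over all 13524 genes, was under 0.05. In bulk RNA, fewer cells of a type and less RNA per cell cannot be told apart. Of the CD8+ T cell markers, 7 of 8 had a probe and all 7 were above background on every array. Cd8b1 lay between 4752.9 and 7588.1, while the Cd8a probe was dim, between 36.5 and 48.5. Cd4 lay between 32.2 and 37 and Foxp3 lay between 246.8 and 317. Of the 5 NK cell markers with a probe, Klrc1, Klre1 and Klrk1 were above background on all 6 arrays and Ncr1 on none. Of the B cell markers, 8 of 10 had a probe, 3 were above background on all 6 arrays and 2, Cd22 and Blk, on none.

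Nr4a2 had the largest log2 fold change between epoxomicin and E9 of the 6 tested genes. Its probe gave 160.9 and 162.5 with DMSO, 238.5 and 259.4 with epoxomicin, and 61.2 and 57.2 with E9. The 3 groups did not overlap, with epoxomicin highest and E9 lowest, and all 6 arrays were above background. Relative to DMSO, Nr4a2 rose with epoxomicin (log2 fold change 0.55 ± 0.0677 (SE, n = 2 arrays per group), limma adjusted p = 0.00761) and fell with E9 (log2 fold change -1.14 ± 0.0677 (SE), limma adjusted p = 5.15e-06). The intensities themselves stood at a ratio of 1.54 for epoxomicin and 0.366 for E9 to DMSO. Among the 13524 genes it ranked 26 from the top with epoxomicin and 42 from the bottom with E9.

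**Figure D1:**
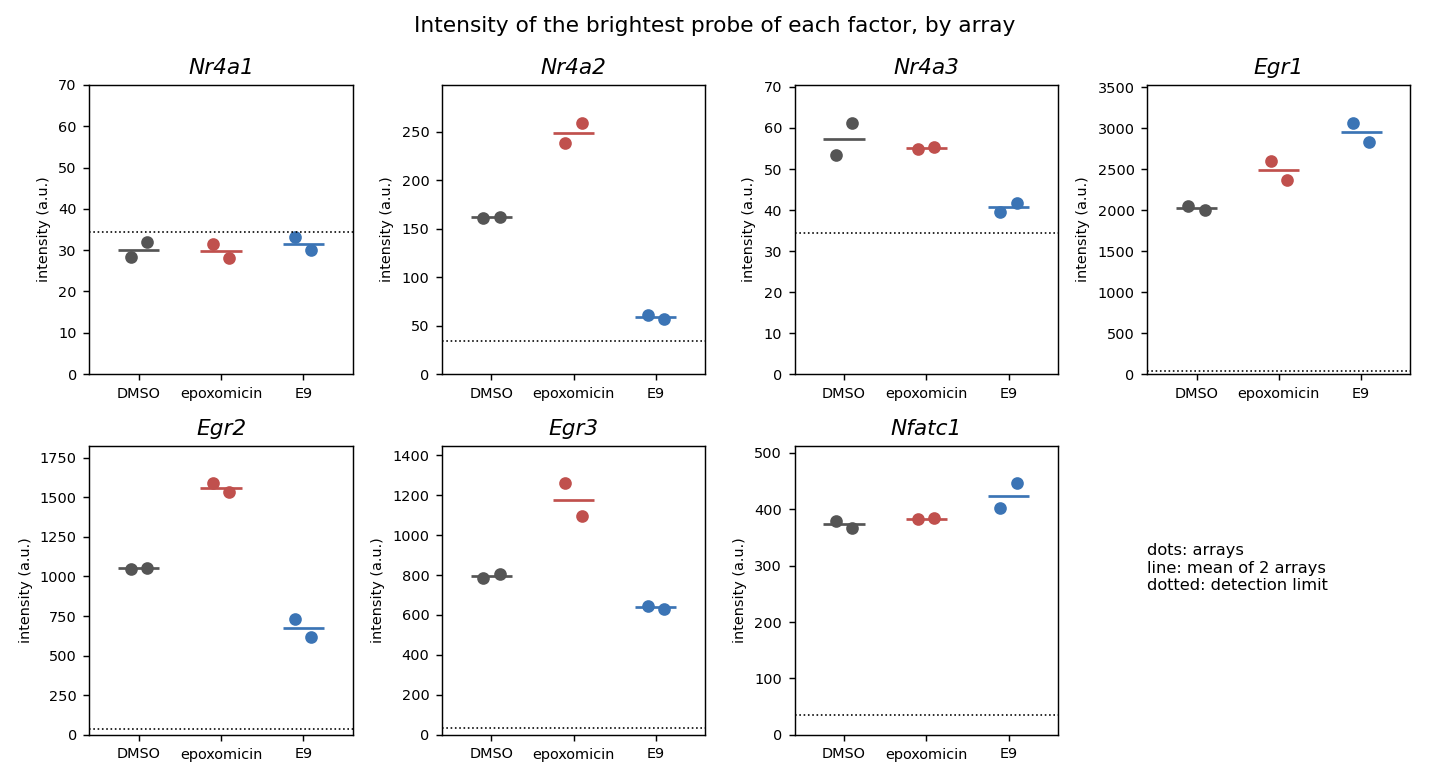
Intensity (arbitrary units, linear axes from 0) of the brightest probe of each of the 7 genes, with 1 dot per array, a line at the mean of the 2 arrays of a group and a dotted line at the detection limit of 34.5. Nr4a2, Egr2 and Egr3 run from epoxomicin over DMSO to E9, Egr1 is highest with E9, and both arrays of every group lie under the limit for Nr4a1.

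Nr4a3 was dim, and its probes did not give the same picture for epoxomicin. The brightest, ILMN_1257794, gave 53.3 and 61.3 with DMSO, 54.9 and 55.4 with epoxomicin, and 39.6 and 41.8 with E9. Both E9 arrays lay below the other 4, while epoxomicin lay inside the range of DMSO. On this probe Nr4a3 fell with E9 (log2 fold change -0.32 ± 0.0697 (SE), limma adjusted p = 0.0126, or 0.108 without DMSO 2) and did not pass with epoxomicin (log2 fold change -0.036 ± 0.0697 (SE), limma adjusted p = 0.927). The size of the fall depended on the background correction, at -0.59 with an offset of 16 and -0.49 with none. The second probe, ILMN_1233670, gave 49.8 and 52.9 with DMSO, 65.9 and 60.2 with epoxomicin, and 39.7 and 34.5 with E9. Here the 3 groups did not overlap and ran in the order of Nr4a2. In a fit of all 20349 named probes it fell with E9 (log2 fold change -0.30, limma adjusted p = 0.0214), and its difference between epoxomicin and DMSO was 0.20 (limma adjusted p = 0.318). The third, ILMN_2666945, was above background on 3 of 6 arrays and passed in no comparison.

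The Nr4a1 probe gave 28.3 and 32 with DMSO, 31.6 and 28.2 with epoxomicin, and 33.1 and 30 with E9. All 6 values were under 34.5 and the groups overlapped. Nr4a1 encodes NUR77, the family member most used as a reporter of antigen receptor signals, and a probe under the limit bounds its signal on this array without giving the transcript's level.

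Among the EGR genes, Egr2 and Egr3 followed the order of Nr4a2. Egr2 gave 1049.6 and 1055.8 with DMSO, 1587.7 and 1533.8 with epoxomicin, and 733.6 and 618.9 with E9, with no overlap between groups. It rose with epoxomicin (log2 fold change 0.56 ± 0.0825 (SE), limma adjusted p = 0.0138) and fell with E9 (log2 fold change -0.62 ± 0.0825 (SE), limma adjusted p = 0.000744). Egr2 ranked 23 from the top with epoxomicin, and 191 from the bottom with E9.

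The brighter Egr3 probe gave 787.4 and 803.7 with DMSO, 1258.4 and 1093.1 with epoxomicin, and 643.7 and 632.3 with E9. Both epoxomicin arrays were highest and both E9 arrays lowest. Egr3 rose with epoxomicin (log2 fold change 0.55 ± 0.0767 (SE), limma adjusted p = 0.0113) and fell with E9 (log2 fold change -0.31 ± 0.0767 (SE), limma adjusted p = 0.0241). The fall with E9 lost its call in 6 of 13 alternative fits, among them each of the 4 that left out a DMSO or an E9 array. The 13 include a crossed replicate block added after the data were seen, in which it kept its call. A dim second probe, ILMN_2653543, lay between 29.9 and 40.5 on the 6 arrays and passed in no comparison. With the mean of both probes neither change of Egr3 against DMSO passed, at 0.28 for epoxomicin (limma adjusted p = 0.1) and -0.20 for E9 (limma adjusted p = 0.0707).

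Egr1, the EGR gene most used as an immediate early marker, did not share this order. Its probe gave 2056.7 and 2003.9 with DMSO, 2601.9 and 2372.5 with epoxomicin, and 3069.7 and 2831.7 with E9. The groups did not overlap, and DMSO was lowest. Egr1 rose with E9 (log2 fold change 0.53 ± 0.0735 (SE), limma adjusted p = 0.000971), the direction opposite to Egr2 and Egr3, and kept this call in all 13 alternative fits. Its difference with epoxomicin was 0.29 ± 0.0735 (SE) on the log2 scale and did not pass (limma adjusted p = 0.126). That between epoxomicin and E9 was -0.25 ± 0.0735 (SE) and did not pass either (limma adjusted p = 0.0614). It passed in 2 of 13 alternatives. These were the mean of a gene's probes (limma adjusted p = 0.0488) and the crossed block added after the data were seen (limma adjusted p = 0.0346).

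Nfatc1 was measured by 6 probes and passed with none of them. The brightest, ILMN_2648455, gave 379.4 and 366.6 with DMSO, 382.3 and 383.7 with epoxomicin, and 401.9 and 445.7 with E9. Both E9 arrays were highest, but the difference from DMSO did not pass (log2 fold change 0.17 ± 0.0697 (SE), limma adjusted p = 0.149). With epoxomicin the difference was 0.036 ± 0.0697 (SE) on the log2 scale (limma adjusted p = 0.927). ILMN_1224430, designed against another Nfatc1 transcript, gave 317.5 and 306.6 with DMSO, 371.3 and 341.9 with epoxomicin, and 339.8 and 315.9 with E9, so that epoxomicin was highest there. Across the 5 Nfatc1 probes kept, log2 fold changes ran from 0.001 to 0.18 for epoxomicin and from -0.054 to 0.17 for E9. The sixth, ILMN_2647734, was above background on 1 of 6 arrays.

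**Figure D2:**
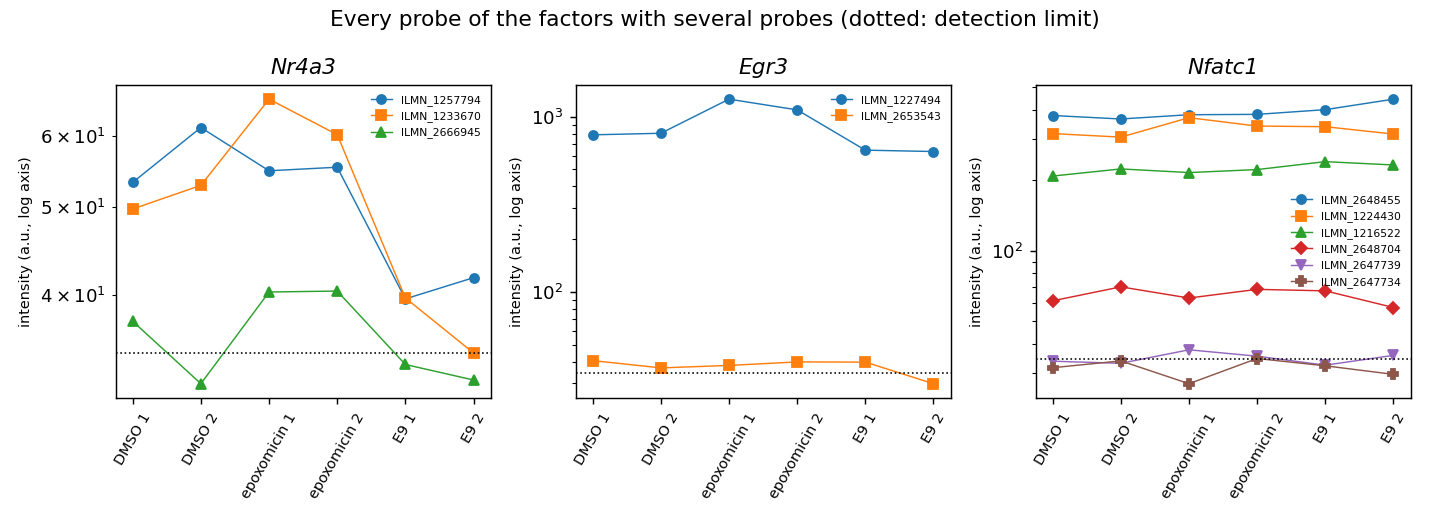
Intensity (arbitrary units, logarithmic axis) of every probe of Nr4a3, Egr3 and Nfatc1 on the 6 arrays, with lines that only join the values of a probe and a dotted line at 34.5. For Nr4a3 the epoxomicin arrays are highest on 2 of 3 probes, the second Egr3 probe stays near the limit, and the Nfatc1 probes are nearly level.

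Counted together against DMSO, 3 of the 6 tested genes rose with epoxomicin (Nr4a2, Egr2 and Egr3) and none fell. In that comparison 1.26% of all genes were called, 0.71% as higher, and the median log2 fold change was 0.42 over the 6 genes and 0.002 over all. With E9, 4 of the 6 fell (Nr4a2, Nr4a3, Egr2 and Egr3) and Egr1 rose. There 15.1% of all genes were called, 7.61% as lower and 7.52% as higher, and the medians were -0.31 and -0.006. The groups did not overlap for 5 of the 6 genes with epoxomicin and for 6 with E9, which was true of 41.5% and 51.4% of all genes. Both comparisons share the 2 DMSO arrays.

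Markers of CD8+ T cells and of other cells were read beside these results. The summed intensity of the 8 B cell markers with a probe was 497 to 536 with DMSO, 333 to 367 with epoxomicin and 379 to 400 with E9. Of the 6 tested, 4 fell with epoxomicin (H2-Ab1, Cd74, Cd79b and H2-Aa) and 2 with E9 (H2-Ab1 and Cd79b). Of the 2 further H2-Ab1 probes kept, 0 were called with epoxomicin. H2-Aa was near the threshold with epoxomicin (limma adjusted p = 0.0491), and neither epoxomicin array was above background for it. These B cell markers did not move together: with E9, Cd74 (log2 fold change 0.068) and H2-Aa (-0.014) did not pass. Ms4a1, between 32.6 and 35.7, and Pax5, between 29.5 and 35.8, were above background on 3 and 2 of 6 arrays and passed in no comparison. The 5 NK cell markers with a probe summed to 235 to 241, 293 to 304 and 389 to 414 for DMSO, epoxomicin and E9. Of the 4 tested, 2 rose with E9, Klre1 (0.98) and Klrc1 (0.84). The list did not move together: Klrk1, above background on all 6 arrays, did not pass with E9 (-0.030, limma adjusted p = 0.854). Ncr1 was above background on no array. Klrb1c, between 32.9 and 36.4, was above it on 3 of 6 and passed in no comparison. The 7 CD8+ T cell markers summed to 11334 to 11699, 12970 to 13145 and 18152 to 18774, and 6 of them rose with E9. With epoxomicin 0 of the 4 NK and 0 of the 7 CD8+ T cell markers passed in limma (2 and 5 at an unadjusted p under 0.05). The 4 markers of CD4+ and regulatory T cells summed to 411 to 414, 417 to 419 and 343 to 376, and the 9 myeloid markers to 289 to 295, 282 to 286 and 310 to 314. These sums include probes at background, and 0 of the 9 myeloid markers were above it on all 6 arrays. With E9, Foxp3 fell (log2 fold change -0.24, limma adjusted p = 0.0422), though its 1 further probe was not called. The myeloid marker S100a8 rose with E9 (0.36, limma adjusted p = 0.0119) and was above background on the 2 E9 arrays only. No marker of these 2 lists passed with epoxomicin. B cells also express EGR and NR4A genes, and the part of any of these cells in the results was not tested.

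The calls with epoxomicin depended on single arrays. Leaving out DMSO 1, DMSO 2 or epoxomicin 2 left 0 of the 6 genes called, and leaving out epoxomicin 1 left Nr4a2. The calls over all genes fell with them, from 170 to 12, 16, 1 and 29 without DMSO 1, DMSO 2, epoxomicin 2 and epoxomicin 1. In these fits the log2 fold changes of Nr4a2, Egr2 and Egr3 lay between 0.45 and 0.65, and the lone array of a group was assumed to vary like the others. With E9, 3 genes stayed called without DMSO 2 (Nr4a2, Egr1 and Egr2) and 4 without any other DMSO or E9 array.

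**Figure D3:**
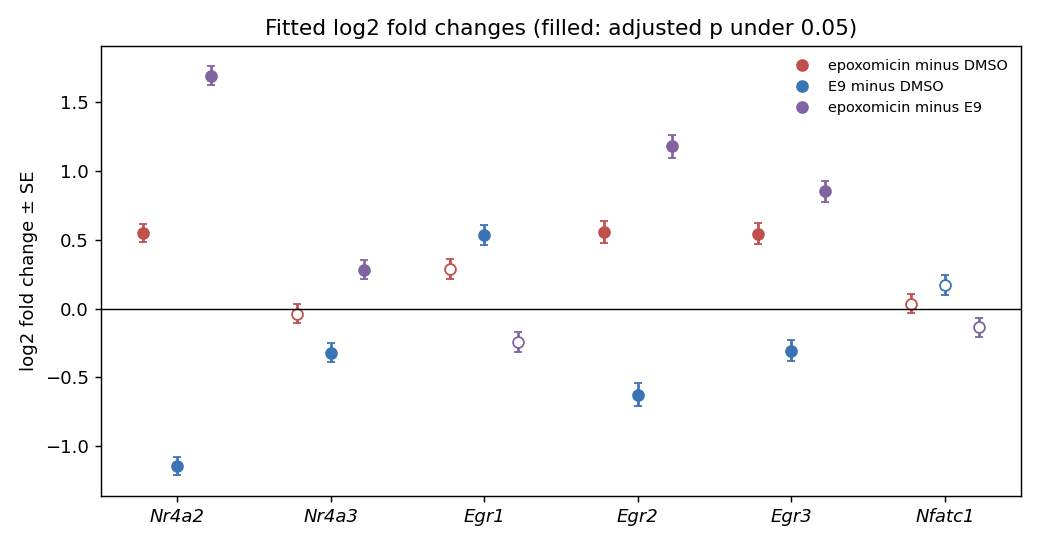
Log2 fold change (vertical axis) with its SE as the error bar for the 6 tested genes in the 3 comparisons, filled where the adjusted p was under 0.05. Nr4a2, Egr2 and Egr3 are above 0 with epoxomicin and below 0 with E9, while Egr1 is above 0 in both and Nfatc1 has no filled point.

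The direct comparison of epoxomicin with E9, at their different doses, called 4 of the 6 genes, all higher with epoxomicin, where 12.6% of all genes were called 6% as higher and 6.62% as lower. The difference was widest for Nr4a2 (log2 fold change 1.69 ± 0.0677 (SE), limma adjusted p = 4.12e-07), an intensity ratio of 4.21. Egr2 followed (log2 fold change 1.18 ± 0.0825 (SE), limma adjusted p = 1.38e-05) and then Egr3 (log2 fold change 0.85 ± 0.0767 (SE), limma adjusted p = 6.89e-05), whose value was 0.48 with the mean of its probes (limma adjusted p = 0.00147). Nr4a3 differed least of the 4 (log2 fold change 0.28 ± 0.0697 (SE), limma adjusted p = 0.0259) and lost its call in 3 of 13 alternatives, each of which left out an array (epoxomicin 1, epoxomicin 2 or E9 1, adjusted p from 0.0948 to 0.142). With an offset of 16 its value was 0.53 and with no background correction 0.44. Its second probe gave 0.50 (limma adjusted p = 0.00141). Nfatc1 did not pass (-0.14 ± 0.0697 (SE), limma adjusted p = 0.296). The groups did not overlap for any of the 6 genes, as for 50.1% of all.

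In order of level, Nr4a2, Egr2 and Egr3 thus went from epoxomicin over DMSO to E9, with each neighbour called in the main fit. The calls between epoxomicin and DMSO, and that of Egr3 between E9 and DMSO, depended on single arrays. Neither difference of Egr3 from DMSO passed with the mean of its probes. For Egr1 the order was E9 (2951 ± 168 (SD, n = 2)), epoxomicin (2487 ± 162) and DMSO (2030 ± 37.3), and only its ends differed past the threshold. For Nr4a3 on its brightest probe, DMSO (57.3 ± 5.66 (SD, n = 2)) and epoxomicin (55.2 ± 0.354) could not be ranked, and E9 (40.7 ± 1.56) was below both. No order could be given for Nfatc1 or Nr4a1.

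The lists of related genes are read against the shares of all 13524 genes: 1.26% were called with epoxomicin (0.71% higher, 0.547% lower) and 15.1% with E9 (7.52% higher, 7.61% lower). The lists, too, were chosen with earlier results of these data known, so these shares give a scale and test no list. In the list of other NFAT proteins, calcineurin and its regulators, 0 of the 18 measured genes passed with epoxomicin in limma (4 at an unadjusted p under 0.05), where 1.26% of all genes did. With E9, 2 rose and 2 fell, where 15.1% of all genes were called. The calcineurin catalytic subunit genes Ppp3cc (log2 fold change 0.96 ± 0.0829 (SE)) and Ppp3ca (0.76 ± 0.0615) rose, while Nfat5, a tonicity-responsive relative of the NFAT family (-0.76 ± 0.0769), and Orai1, the pore of the store-operated calcium channel (-0.42 ± 0.0803), fell, with limma adjusted p from 3.64e-05 to 0.00693. The median of the list was 0.030 with epoxomicin and 0.071 with E9.

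In the list of the RAS-ERK arm and SRF partners, 0 of the 17 measured genes passed with epoxomicin in limma (5 at an unadjusted p under 0.05), against 1.26% of all genes. With E9, 4 rose and 2 fell, against 15.1% of all genes called. Dgka, a kinase that consumes diacylglycerol (1.04 ± 0.0862), the RAS GTPase-activating protein gene Rasa2 (0.87 ± 0.0889) and Rasgrp1, an activator of RAS (0.62 ± 0.0612), rose. Elk3, an SRF partner, fell (-0.78 ± 0.0744), and limma adjusted p for these 4 ran from 4.1e-05 to 0.000152. Srf did not pass with E9 (0.013, limma adjusted p = 0.958). The medians were 0.076 and -0.023.

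EGR partners and genes reported downstream of EGR2 and EGR3 changed on both sides. With epoxomicin 3 of 15 measured genes rose and none fell, against 0.71% of all genes higher and 0.547% lower. These were Nrp1, the neuropilin-1 receptor (0.56 ± 0.0691), Sema7a, a semaphorin (0.55 ± 0.0942), and Lag3, an inhibitory receptor (0.45 ± 0.0793), with limma adjusted p from 0.00797 to 0.0307. Of the 2 further Sema7a probes kept, 0 were called. With E9, 3 rose and 6 fell, against 7.52% and 7.61% of all genes. The adhesion receptor gene Crtam (-1.68 ± 0.0882), Lag3 (-1.67 ± 0.0793) and Nrp1 (-1.34 ± 0.0691) fell, and Nab1, a corepressor that binds EGR proteins, rose (0.85 ± 0.0704), with limma adjusted p from 1.36e-06 to 4.15e-05. Nab2, from the same list, went the other way and fell with E9 (-0.23 ± 0.0617, limma adjusted p = 0.0355). The medians were 0.23 with epoxomicin and -0.14 with E9. Tnfrsf9, the costimulatory receptor 4-1BB, was higher with epoxomicin than with E9 (0.85 ± 0.0979, limma adjusted p = 0.000338).

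TOX factors and inhibitory receptors, which are known to accompany NR4A factors in chronically stimulated cells, numbered 9 measured genes, with Lag3 also in the list before. With epoxomicin 3 rose and 1 fell, against 1.26% of all genes called: Cd160 (0.76 ± 0.0895), Lag3 and Havcr2, which encodes TIM-3 (0.39 ± 0.0699), rose, and Ctla4 fell (-0.99 ± 0.0995), with limma adjusted p from 0.00356 to 0.0307. With E9, 4 fell and 1 rose, against 15.1% of all genes called. Tox, a factor gene known from exhausted T cells, rose (0.37, limma adjusted p = 0.00395), and the falls were Cd200 (-2.39 ± 0.0921), Lag3, Cd160 (-0.76 ± 0.0895) and Ctla4 (-0.53 ± 0.0995), with limma adjusted p from 3.53e-07 to 0.00585. Ctla4 was thus lower with both compounds. The medians were 0.11 and -0.21.

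AP-1 subunits and other fast response genes moved in both directions with E9. In that comparison, 5 of 23 measured genes rose and 6 fell, against 7.52% and 7.61% of all genes. Zfp36, which destabilises cytokine mRNAs (1.13 ± 0.0672), and the AP-1 subunit gene Fosb (0.95 ± 0.0871) rose, while Klf6 (-0.94 ± 0.0799) and the AP-1 factor gene Batf3 (-0.81 ± 0.131) fell, with limma adjusted p from 5.15e-06 to 0.00255. With epoxomicin, where 1.26% of all genes were called, 1 rose, Zfp36l1 (0.38 ± 0.0731, limma adjusted p = 0.0433), and 1 fell, Klf6 (-0.54 ± 0.0799, limma adjusted p = 0.0138). Crem, the cAMP response element modulator gene (-0.93 ± 0.063), and the stress factor gene Atf3 (-0.56 ± 0.0779) were lower with epoxomicin than with E9 (limma adjusted p = 1.12e-05 and 0.00119). The medians were -0.058 with epoxomicin and 0.031 with E9.

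Among the surface markers and cytokines that follow stimulation, 1 of 11 measured genes rose with epoxomicin, against 0.71% of all genes, and this was Tnf (0.60 ± 0.0864, limma adjusted p = 0.0124). With E9, 7 fell and 1 rose, against 7.61% and 7.52% of all genes, the largest falls being in Xcl1 (-3.31), Il2 (-3.20), Ifng (-2.53) and Tnfrsf4 (-2.40), with limma adjusted p from 4.8e-08 to 1.76e-06. The gene that rose was Cd44, the adhesion receptor of antigen-experienced cells (0.64 ± 0.116 (SE), limma adjusted p = 0.005). Tnfrsf9, also in the list of EGR partners and targets, was among the 7 that fell (-0.505 ± 0.0979 (SE), limma adjusted p = 0.00706). The medians were 0.18 and -0.51.

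**Figure D4:**
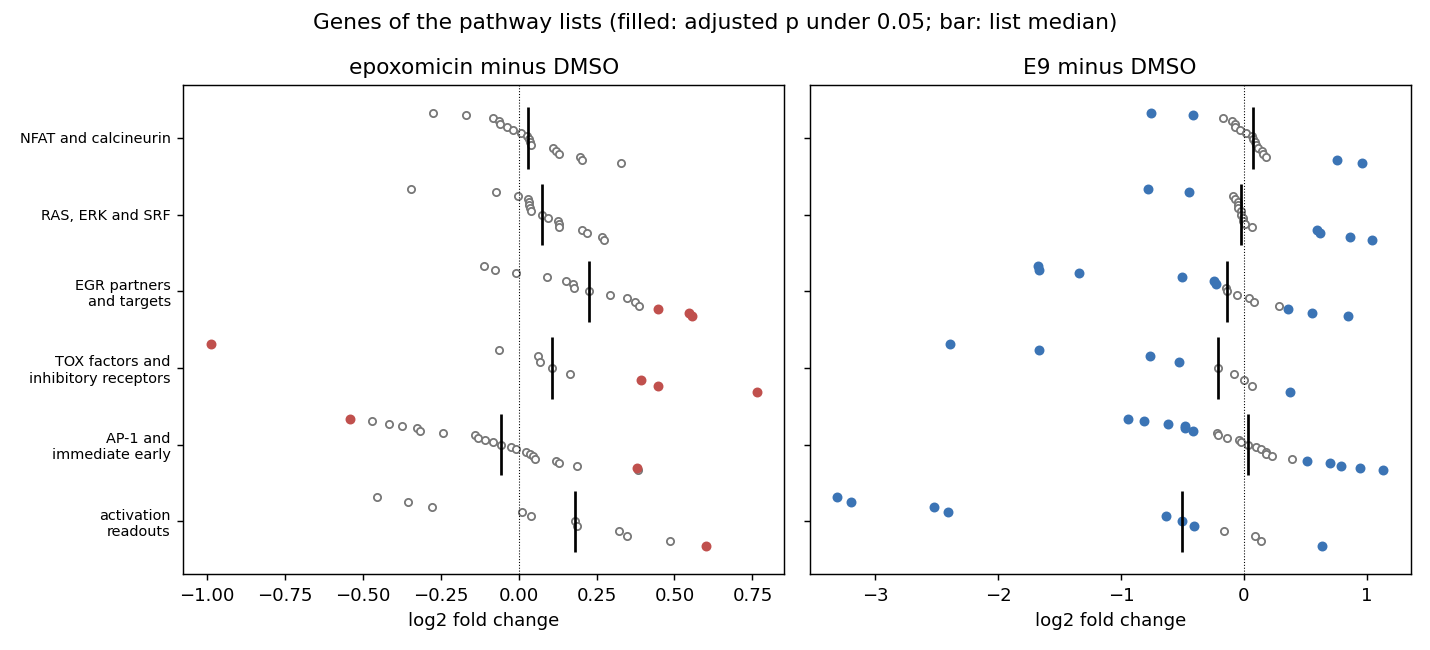
Log2 fold change (horizontal axis, scaled separately for each comparison) of every measured gene of the 6 pathway lists, filled where the adjusted p was under 0.05, with a bar at the median of each list. With E9 the activation readouts reach down to Xcl1 at -3.31, and the AP-1 and immediate early genes have filled points on both sides of 0.

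The genes whose profile over the 6 arrays lay nearest to each called factor were sought by the distance between log2 values centred on their means. For Nr4a2 these were Rgs1, a regulator of G protein signalling (distance 0.196), Idi2 (0.249) and Nrp1 (0.293). Rgs1 gave 2091.3 and 2026.7 with DMSO, 2679.4 and 2835 with epoxomicin, and 931.3 and 950.5 with E9. For Egr2 they were Acsl6, an acyl-CoA synthetase gene (0.191), the chemokine gene Ccl3 (0.226) and Nfat5 (0.239). For Egr3 they were Mmd (0.135), Tmem126a (0.135) and Plek, which encodes pleckstrin (0.184). Neither E9 array was above background for Idi2 or Acsl6.

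For Egr1 the nearest genes were Dnajc3, a chaperone of the endoplasmic reticulum (0.031), the sialomucin gene Cd164 (0.088) and Bbs9 (0.115). Dnajc3 gave 166.3 and 163 with DMSO, 219.6 and 196.9 with epoxomicin, and 258.1 and 234.3 with E9, and so had its highest values with E9, as Egr1 did. For Nr4a3 they were Ubl7 (0.0639), the kinesin gene Kif18b (0.0643) and the fatty acid oxidation gene Acadm (0.0648). Over 6 arrays in 3 groups Pearson's r of these 15 pairs was 0.978 to 0.999, a value that the shared group differences can give to many genes.

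**Figure D5:**
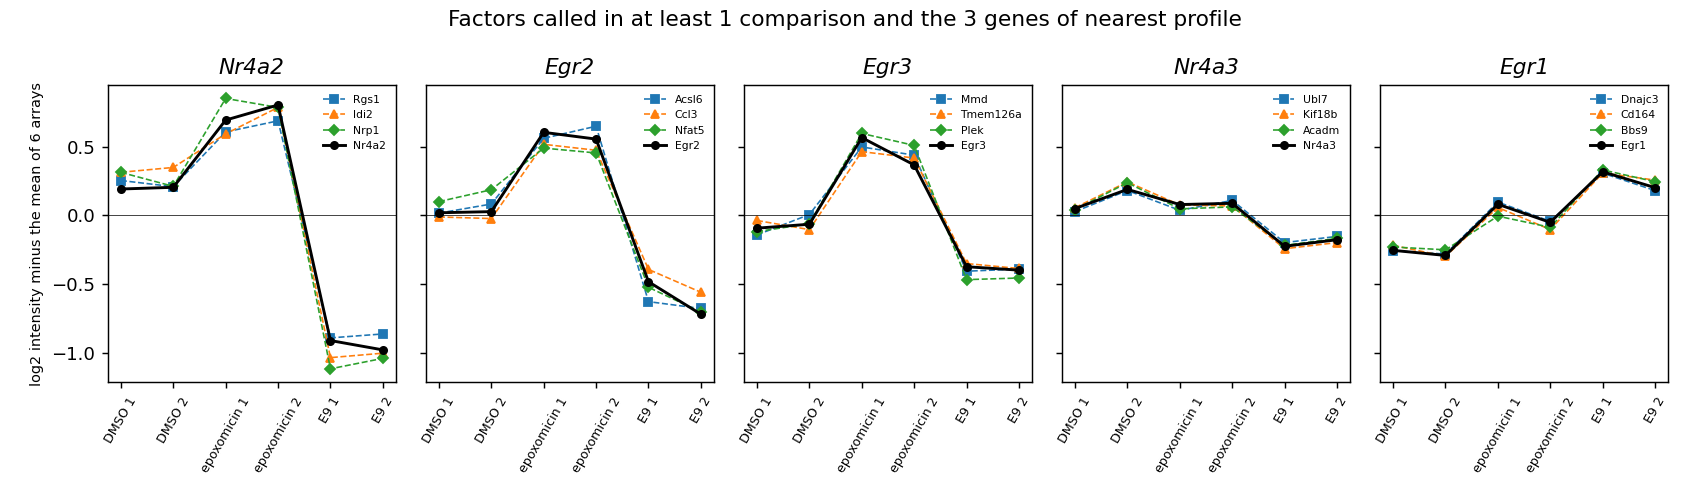
Log2 intensity minus the mean of the 6 arrays (vertical axis) for the 5 factors called in at least 1 comparison (black) and the 3 genes of nearest profile to each (dashed), with lines that only join the values of a gene. The profiles of Nr4a2, Egr2 and Egr3 are highest with epoxomicin and that of Egr1 with E9.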

How the data were processed

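Cy3-labelled RNA of 6 samples was measured on Illumina bead arrays. The authors deposited linear, normalized intensity values, which were used here. Once sorted, the 6 columns hold the same values, so the table had been quantile-normalized, which hides any change in total RNA. Scanner software and background handling are not given in the sources used here. A non-normalized table was not used, as its 6 columns carry running numbers that match no label.

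The limit of 34.5 was the mode of the values (30.7) plus the one-sided 0.05 bound of the spread below it (SD 2.32). Values were corrected with normexp (offset 50), which shrinks fold changes of dim genes, and log2-transformed. Symbols came from the array annotation, updated through RefSeq for 31257 of 35784 named probes (9497 probes had no symbol). The symbol Tec, an older name of Nr4a3, is here the kinase gene of that name and was not counted. Probes above the limit on at least 2 arrays were kept, and the probe of highest mean stood for a gene.

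The test was limma (lmFit, then eBayes, two-sided; 3 residual and 6.32 prior degrees of freedom) in 1 model of the 3 groups. With 2 arrays a group an exact permutation test cannot go below p = 0.333. Without separate animals stated, p-values measure the spread between these arrays, which may be partly technical. On simulated data of 13524 genes, shifts of 0.5 were recovered in 100% of 50 genes in each comparison and shifts of 0.25 in 30%, 34% and 28% (epoxomicin against DMSO, E9 against DMSO, epoxomicin against E9). These shares are not the power for each real gene. With epoxomicin, Ifng (0.485 ± 0.125 (SE), limma adjusted p = 0.13) did not pass, while Lag3 (0.446 ± 0.0793 (SE), limma adjusted p = 0.0307) did. A gene that did not pass is thus not shown to be unchanged. Members and lists were chosen with earlier results of these data known. All 7 members are named whatever their values. Named besides them are up to 4 called, non-overlapping genes of each list per comparison, identity markers, and the 3 nearest profiles of each called member. Of 79 such list results, 44 had further probes, 34 with one called the same way and 0 the opposite way. Among those with further probes but none called were Sema7a, Havcr2 and H2-Ab1 with epoxomicin, and Ppp3ca, Rasgrp1, Elk3 and Foxp3 with E9. Beyond those up to 4 genes of a list, some list genes, such as Nab2, Tox and Srf, are named too. Software was R 4.3.3, limma 3.58.1, Python 3.11.15 and matplotlib 3.10.9.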

Additional observations from a re-analysis of the deposited data

How the results depend on the processing

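The number of factors called was 3 with epoxomicin, 5 with E9 and 4 between epoxomicin and E9. Over 7 settings other than the replicate fits (no background correction, an offset of 16, no filter, the limit on all 6 arrays, the mean of a gene's probes, eBayes with trend and robust settings, and the compared groups alone) it was 2 to 3, 4 to 5 and 4 to 5. Leaving out each array gave 0 to 1, 3 to 4 and 3 to 4. With the replicate number as a block it was 3, 5 and 4, and the block changed no call of a factor, while genes called with epoxomicin went from 170 to 91. Deviations of same-numbered arrays correlated with r = 0.214 (DMSO and epoxomicin), -0.317 (DMSO and E9) and -0.203 (epoxomicin and E9), so the numbers were not taken as pairs. A crossed block, added after the data were seen, called 5 factors with E9 against DMSO and 5 between epoxomicin and E9. Over all genes its calls were 2861 and 2398, against 2046 and 1706 in the main fit. Genes called with epoxomicin numbered 1 to 29 without 1 array, and those called between epoxomicin and E9 numbered 941 and 938 without epoxomicin 1 and 2, against 1706, and those with E9 1311 and 1228 without DMSO 1 and 2, against 2046. Nr4a3 with epoxomicin turned from -0.036 to 0.10 with the mean of its probes and to 0.033 without DMSO 2, its lowest value without 1 array being -0.106, and none of these passed. Fewer arrays leave less power, and beyond that the cause of the lost calls was not tested. Dim probes limit Nr4a1 and Nr4a3.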
